A study of Mus musculus with 6 samples.

Results

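The mitochondrial ribosomal protein genes of mouse embryonic fibroblasts are described here over passage in culture. Members were all rows of the expression table whose gene symbol is Mrpl or Mrps followed by a number and, in some, a letter. The rule found 78 of the 21988 gene symbols in the table, and it reads symbols alone. The names Mrpl and Mrps stand for proteins of the large and of the small subunit of the ribosome inside mitochondria.

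The cells were primary mouse embryonic fibroblasts (MEFs) from embryos of C57BL/6 mice. They were harvested at population doubling (PD) 14, PD8 or PD2, where a population doubling is a log2 increase in cell number, summed over passages. The labels give no added agent and no altered allele, so passage is the labelled difference between groups, and the series title names senescence, the lasting arrest of division that such cells reach. Each group had 2 libraries, 1 made by poly(A) enrichment (replicate 2) and 1 that was strand-specific and made after removal of ribosomal RNA (replicate 1). Replicate number and library method are therefore the same thing, and separate cultures are not stated in the labels. The p-values therefore measure only the spread between these samples, which may be technical. With 1 library per group and method, that spread is the disagreement of the library methods over the differences between groups. It is not a spread between repeats of the same group and method. The cells are an unsorted primary culture, and in bulk RNA fewer cells of a type and less RNA per cell cannot be told apart.

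Mitochondria keep a small genome that encodes core subunits of the respiratory chain, and a ribosome of their own translates those messages. All proteins of that ribosome are encoded in the nucleus, made in the cytosol and imported. The mammalian mitoribosome carries many proteins that bacterial ribosomes lack, beside the counterparts of bacterial ribosomal proteins. Of the 78 genes, 51 encode large-subunit and 26 small-subunit proteins, and 1, Mrps36, encodes a protein that is now assigned to the α-ketoglutarate dehydrogenase complex. Both Mrps18a and Mrps30 are large-subunit proteins despite their symbols. Of the mitoribosomal members, 46 are of bacterial type and 31 are specific to mitochondria.

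The promoters of Mrps22, Mrps27, Mrpl12 and Mrpl9 are shown, all of them members with PD14 levels below PD2 in both library methods. Mrpl9 was added for its typical nuclear respiratory factor 1 (NRF1) motif. They are shown because ETS factors such as GABPA, NRF1 and YY1 are known to bind many nuclear genes for mitochondrial proteins. Sequences are from RefSeq on GRCm38.p6, 5′ to 3′ on the strand of the gene, and hold the bases just before the annotated start that lie in no annotated exon. Capitals mark a motif.
Mrps22, chr9:98601680-98601799, minus strand: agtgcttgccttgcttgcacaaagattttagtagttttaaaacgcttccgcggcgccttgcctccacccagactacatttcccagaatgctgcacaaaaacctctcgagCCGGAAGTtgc
Mrps27, chr13:99344706-99344785, plus strand: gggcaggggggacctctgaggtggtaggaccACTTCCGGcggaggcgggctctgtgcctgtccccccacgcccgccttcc
Mrpl12, chr11:120484493-120484612, plus strand: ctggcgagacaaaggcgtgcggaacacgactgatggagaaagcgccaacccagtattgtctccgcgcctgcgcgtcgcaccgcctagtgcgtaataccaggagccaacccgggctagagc
Mrpl9, chr3:94443198-94443317, plus strand: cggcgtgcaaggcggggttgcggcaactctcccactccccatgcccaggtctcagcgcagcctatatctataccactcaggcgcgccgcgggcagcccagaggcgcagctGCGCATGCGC

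The motifs searched on both strands were CCGGAAGT for ETS factors, GCATGCGC for NRF1 and AAGATGGC for YY1. The window ran from 250 bases before to 50 bases after the start, and 69 of the 78 members had an entry. The ETS motif lay in the windows of 12 members (17.4%), against 8.71% of the 10119 tested genes with an entry. The NRF1 motif lay in those of 8 members (11.6%), against 5.87% of the tested genes. The YY1 motif lay in those of 12 members (17.4%), against 5.08% of the tested genes. Any of the motifs was present for 29 members (42.0%), against 18.2% of the tested genes. In Mrpl9 the NRF1 motif occurs on both strands in overlap, which gives the capital run of 10 bases. Mrpl12 held none of the 3 motifs in its window. A match describes the letters of the window and is not a binding site.

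The genes are spread over 17 chromosomes, with 11 on chromosome 11, 8 on chromosome 17 and 0 on chromosome X. Each matched 1 protein-coding gene of the GENCODE M21 annotation on mm10. Their longest annotated transcripts had a median of 1327.5 bases and 4.5 exons, against 3142 bases and 9 exons for the tested genes. The start of 33 members (42.3%) lay within 1000 bases of the start of another gene on the opposite strand, against 15.5% of the tested genes. In 33 members, exons overlapped those of another gene, and for 23 of them that other gene is in the table. For 18 members the annotation holds a processed pseudogene of at least 95% identity over at least 200 bases, and those named for a value below are Mrpl21, Mrpl27, Mrpl41, Mrpl48, Mrps5, Mrps10, Mrps18b, Mrps21, Mrps25, Mrps26 and Mrps36. Whether reads were counted by strand is not given in the sources used here, so values of overlapping members, and of members with a copy, are uncertain.

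All 78 genes were expressed in every library. The values are TPM (transcript abundance relative to the library's total), which scale each library to a common sum and correct for transcript length. Single values ran from 3.022 TPM for Mrpl53 to 278.7 TPM for Mrpl52. The mean over the 6 libraries had a median of 42.75 TPM among members (quartiles 29.06 and 57.37), against 25 TPM among tested genes and 1211 TPM among genes of cytosolic ribosomal proteins. Of the 78 means, 61 lay between 20 and 100 TPM, and the highest mean was 44.81 times the lowest. Large-subunit members had a median of 45.52 TPM and small-subunit members 38.42 TPM.

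The highest mean levels were those of Mrpl52 (202 TPM), Mrpl33 (153 TPM), Mrpl20 (149.3 TPM), Mrps6 (128.8 TPM) and Mrpl54 (121.2 TPM). Mrps6 is the only small-subunit gene among them, and it shares exon bases with Slc5a3 and Gm49711 on the same strand, so its value is uncertain. Mrpl52 encodes a protein specific to mitochondria, Mrpl54 one linked to the base of the stalk, and Mrpl20, Mrpl33 and Mrps6 counterparts of bacterial proteins. The lowest were those of Mrpl53 (4.508 TPM), Mrps35 (10.22 TPM), Mrpl47 (11.97 TPM), Mrpl19 (12.18 TPM) and Mrpl35 (12.43 TPM). Mrpl53 shares 695 of its 790 exon bases with a predicted gene on the same strand, so its low value is uncertain. Across the 78 members, longer transcripts had lower levels, with Pearson's r = -0.541 between log2 transcript length and log2 mean TPM, where the points share libraries. TPM are divided by transcript length, so part of that correlation may be built in. The length used was that of the longest annotated transcript, which need not be the one expressed.

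**Figure D1:**
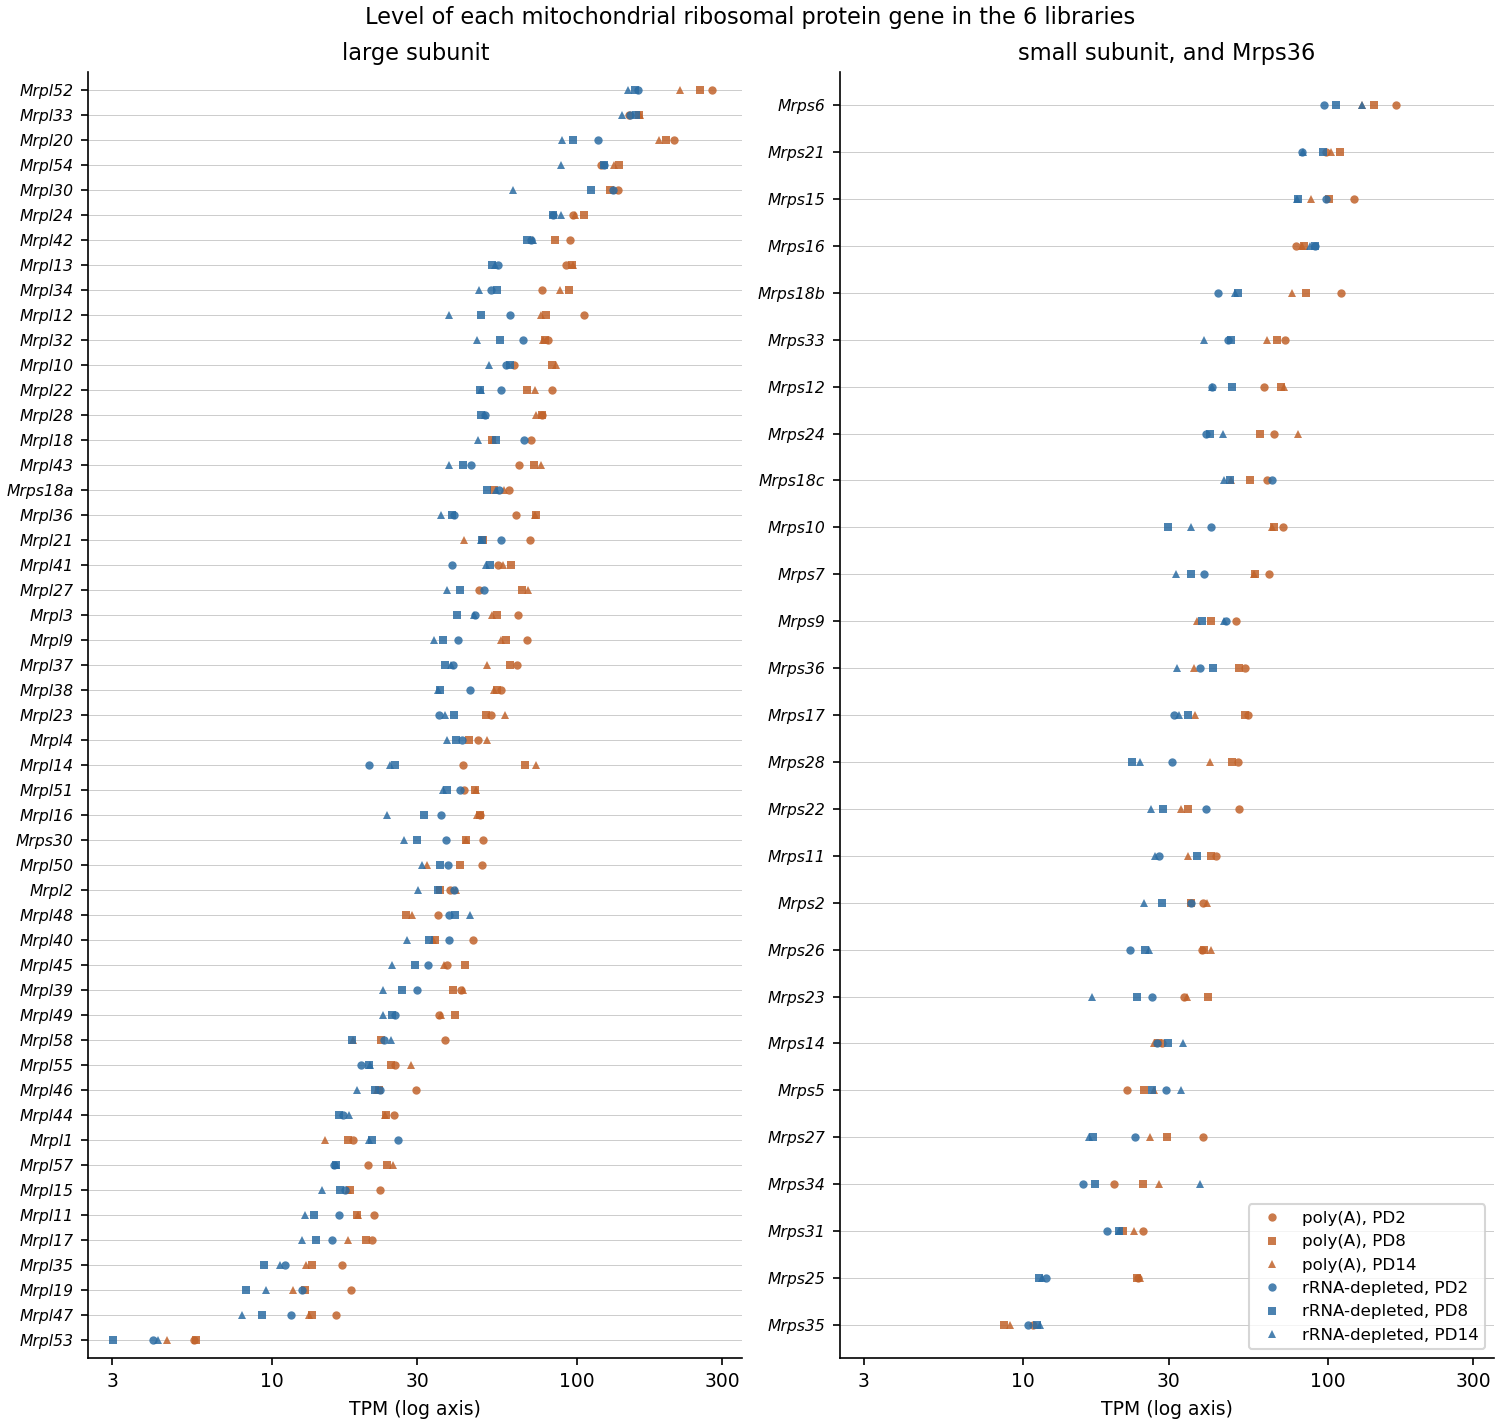
TPM (log axis) of each gene in the 6 libraries, in order of mean level, with large-subunit genes on the left and small-subunit genes and Mrps36 on the right; colour gives the library method and marker shape the group. Mrpl52 has the highest mean and Mrpl53 the lowest, and for most genes the poly(A) points lie right of the rRNA-depleted points.

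Levels over the members were much alike between passages. Libraries of the same method correlated over the 78 genes, on the log2(TPM + 1) scale, at 0.9436 to 0.9873. Libraries of the same group made by different methods correlated at 0.9021 to 0.9416. These are Pearson correlations of levels and do not measure rank. The points share libraries and gene lengths, and these values are descriptions.

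Summed over the members, the level was lower at each later passage in both methods. At PD2, PD8 and PD14 the sum was 4749, 4544 and 4380 TPM in poly(A) libraries. For rRNA-depleted libraries it was 3552, 3352 and 3165 TPM. The PD14 sum differed from the PD2 sum by -7.78% in poly(A) and by -10.89% in rRNA-depleted libraries, and the PD8 sum by -4.32% and -5.64%. Under median-of-ratios scaling the PD8 difference was -11.95% in poly(A) and -6.05% in rRNA-depleted libraries. Each change has 1 library on either side within a method, so it has no replicate check of its own. The gap between methods within a group was larger than the change with passage within a method.

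**Figure D2:**
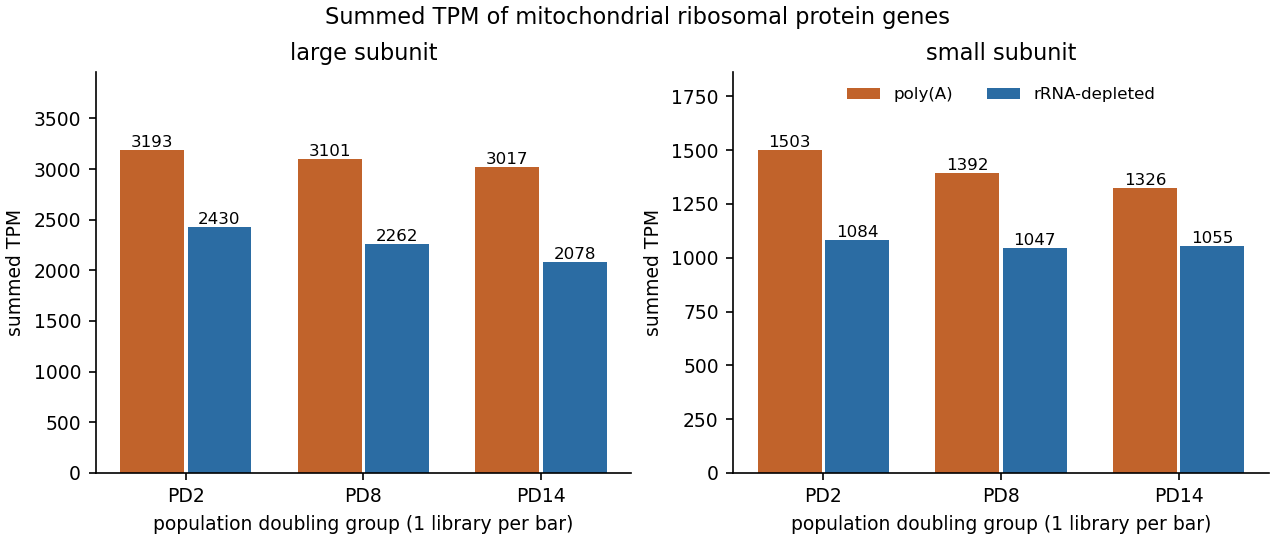
Summed TPM (axis from 0) of the 51 large-subunit genes and the 26 small-subunit genes at PD2, PD8 and PD14, 1 library per bar, with poly(A) left of rRNA-depleted in each pair. The large-subunit bars step down in both methods, and every poly(A) bar is taller than the rRNA-depleted bar beside it.

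The subunits were not alike in the 2 methods. The large-subunit sum at PD2, PD8 and PD14 was 3193, 3101 and 3017 TPM in poly(A) libraries and 2430, 2262 and 2078 TPM in rRNA-depleted libraries. The small-subunit sum was 1503, 1392 and 1326 TPM in poly(A) libraries and 1084, 1047 and 1055 TPM in rRNA-depleted libraries. The small-subunit share of the members' TPM was therefore lower with passage in poly(A) libraries (31.65%, 30.64% and 30.29%) and higher in rRNA-depleted libraries (30.52%, 31.24% and 33.34%). The methods gave opposite directions for that share, and it was not tested. In rRNA-depleted libraries Mrps6 went from 96.94 TPM at PD2 to 129.8 TPM at PD14, and Mrps34 from 15.75 to 37.92 TPM. Both share exon bases with other genes and are uncertain. Mrpl30, of the large subunit, went from 131.7 to 61.95 TPM there. The part of these members in the share was not tested.

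The comparison of PD14 with PD2 asks what differed over the whole passage series. No member passed the test in either direction. Differences were fitted with limma on log2(TPM + 1) over all 13332 genes with at least 1 TPM in at least 2 libraries, with library method as a block. P-values were adjusted by the Benjamini-Hochberg method over all those genes, with a threshold of 0.05. Values written ± are the fitted log2 difference and its standard error (SE), n = 2 libraries per group. Of the tested genes, 6.41% were called higher at PD14 and 4.77% lower, against 0 of 78 members in each direction. That background of 854 higher and 636 lower genes was 22 and 3 without the rRNA-depleted PD8 library, 19 and 2 without the poly(A) PD8 library, 3 and 2 without the poly(A) PD14 library, and 0 in both directions without the rRNA-depleted PD14 library. The count of members was 0 in each case, so the contrast with the background depends on each of these libraries. At an unadjusted p under 0.05, 2 members were higher, against 17.9% of genes tested, and 10 members were lower, against 14.1% of genes tested. The 12.8% of members in the lower direction was near that background.

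The fitted differences leaned downward and were small. The median over the members was -0.168, against 0.060 over all genes tested, and 55 of 78 were negative. They ran from -0.600 to 0.847. Within the methods the median PD14 minus PD2 difference was -0.109 in poly(A) and -0.167 in rRNA-depleted libraries. The 95% interval lay within a 2-fold change either way for 75 members, against 7699 of 13332 genes tested. It lay within 1.5-fold for 41 members, against 2570 genes. These intervals are per gene and unadjusted. They describe these libraries and do not bound differences between separate cultures. The median SE was 0.152, and the smallest difference called in the whole table was 0.523 in size.

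PD14 lay below PD2 in both methods for 37 members, against 30.8% of genes tested, and above PD2 in both for 11 members, against 38.8%. PD2 exceeded PD8, and PD8 exceeded PD14, in both methods for 20 members, against 13% of genes tested. These included Mrpl12, Mrpl20, Mrpl21, Mrpl52, Mrps7, Mrps15, Mrps18c, Mrps22 and Mrps27. The opposite order held for 3 members, Mrpl57, Mrps26 and Mrps34, against 15% of genes tested. For the remaining 30 members the 2 methods gave opposite signs for PD14 minus PD2.

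**Figure D3:**
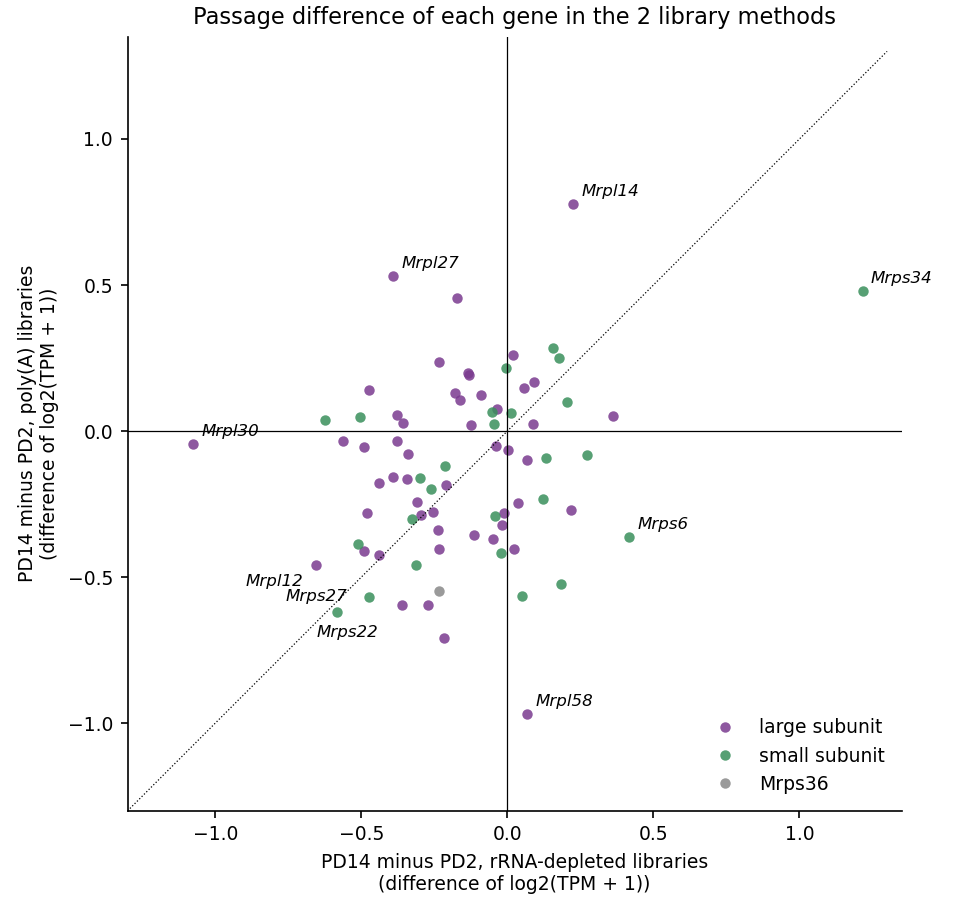
PD14 minus PD2 difference of log2(TPM + 1) for each of the 78 genes, rRNA-depleted libraries on the horizontal axis and poly(A) libraries on the vertical axis; the dotted line marks equal differences. The field below and left of 0 holds 37 genes and the field above and right of it 11, with Mrps22, Mrps27 and Mrpl12 near the dotted line and Mrpl30, Mrpl58, Mrpl27 and Mrps6 far from it.

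Mrps22 encodes a mitochondria-specific protein of the small subunit (chromosome 9, 98588730 to 98601660, minus strand, mm10), and no other annotated gene overlaps its exons. Its level was 51.2, 34.8 and 33.0 TPM at PD2, PD8 and PD14 in poly(A) libraries. It was 39.9, 28.8 and 26.3 TPM in rRNA-depleted libraries. Both PD2 values lay above all 4 later values. The fitted PD14 minus PD2 difference was -0.60 ± 0.133 (95% interval -0.94 to -0.26), the largest negative value among members, with a limma adjusted p of 0.0504. With a pseudocount of 0.1, and under median-of-ratios or quantile scaling, Mrps22 passed the threshold, and over all alternatives its adjusted p ran from 0.0403 to 0.469. The difference between PD8 and PD2 was -0.50 ± 0.133 (limma adjusted p = 0.145), and that between PD14 and PD8 only -0.10 ± 0.133.

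Mrpl12 encodes the stalk protein that helps to recruit translation factors to the large subunit (chromosome 11, 120484613 to 120489065, plus strand). Its level was 105.6, 79.41 and 76.58 TPM at PD2, PD8 and PD14 in poly(A) libraries and 60.7, 48.5 and 38.19 TPM in rRNA-depleted libraries. The PD14 values lay below the PD2 value of the same method, but the groups overlapped across methods. The fitted difference was -0.56 ± 0.133 (95% interval -0.89 to -0.22; limma adjusted p = 0.0577). An antisense noncoding RNA gene shares 200 of its exon bases.

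Mrps27 encodes a pentatricopeptide repeat protein of the small subunit (chromosome 13, 99344786 to 99415562, plus strand). It had 39.03, 29.73 and 25.99 TPM at PD2, PD8 and PD14 in poly(A) libraries and 23.26, 16.99 and 16.45 TPM in rRNA-depleted libraries. In each method both later values lay below PD2, and the groups overlapped across methods. The fitted difference was -0.52 ± 0.149 (95% interval -0.90 to -0.14; limma adjusted p = 0.0829). A noncoding RNA gene shares 506 of its exon bases.

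The other negative values named by size were those of Mrpl30, Mrpl19 and Mrpl21, all large-subunit proteins of bacterial type. Mrpl30 had 136.3, 128.4 and 132.2 TPM at PD2, PD8 and PD14 in poly(A) libraries, and 131.7, 111.4 and 61.95 TPM in rRNA-depleted libraries. Its difference of -0.56 ± 0.267 (limma adjusted p = 0.218) thus rests on the rRNA-depleted PD14 library, without which it is -0.08. Mrpl19 differed by -0.48 ± 0.192 (limma adjusted p = 0.162) and shares exon bases with Gcfc2. Mrpl21 differed by -0.46 ± 0.162 (limma adjusted p = 0.124). It had 70.47, 49.46 and 42.69 TPM at PD2, PD8 and PD14 in poly(A) libraries and 56.67, 48.82 and 48.63 TPM in rRNA-depleted libraries. Both PD2 values lay above the 4 later ones, but the difference was -0.659 without the rRNA-depleted and -0.267 without the poly(A) PD2 library.

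The largest positive value was that of Mrps34, which encodes a mitochondria-specific small-subunit protein (chromosome 17, 24895116 to 24897502, plus strand). Its level was 19.81, 24.68 and 27.99 TPM at PD2, PD8 and PD14 in poly(A) libraries and 15.75, 17.21 and 37.92 TPM in rRNA-depleted libraries. The PD14 values lay above all others. The fitted difference was 0.85 ± 0.260 (95% interval 0.19 to 1.51; limma adjusted p = 0.0958). Its exons share 1309 of 2064 bases with Mapk8ip3 on the opposite strand and 763 with Nme3 on the same strand, so the value is uncertain. Mapk8ip3 had 50.77, 83.9 and 66.29 TPM at PD2, PD8 and PD14 in poly(A) libraries and 71.37, 77.93 and 122.2 TPM in rRNA-depleted libraries, and its part in the Mrps34 values was not tested.

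Mrpl14 encodes a large-subunit protein of bacterial type at the face toward the small subunit (chromosome 17, 45686322 to 45698495, plus strand). It had 42.49, 67.68 and 73.6 TPM at PD2, PD8 and PD14 in poly(A) libraries, and 20.81, 25.28 and 24.51 TPM in rRNA-depleted libraries. Both PD14 values lay above PD2 of the same method, and the groups overlapped across methods. The fitted difference was 0.50 ± 0.179 (95% interval 0.05 to 0.96; limma adjusted p = 0.129). It shares 106 exon bases with Tmem63b on the opposite strand. The next positive values were those of Mrps5 (0.22), Mrps24 (0.21), Mrpl41 (0.21) and Mrps26 (0.15), each with a 95% interval that included 0.

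**Figure D4:**
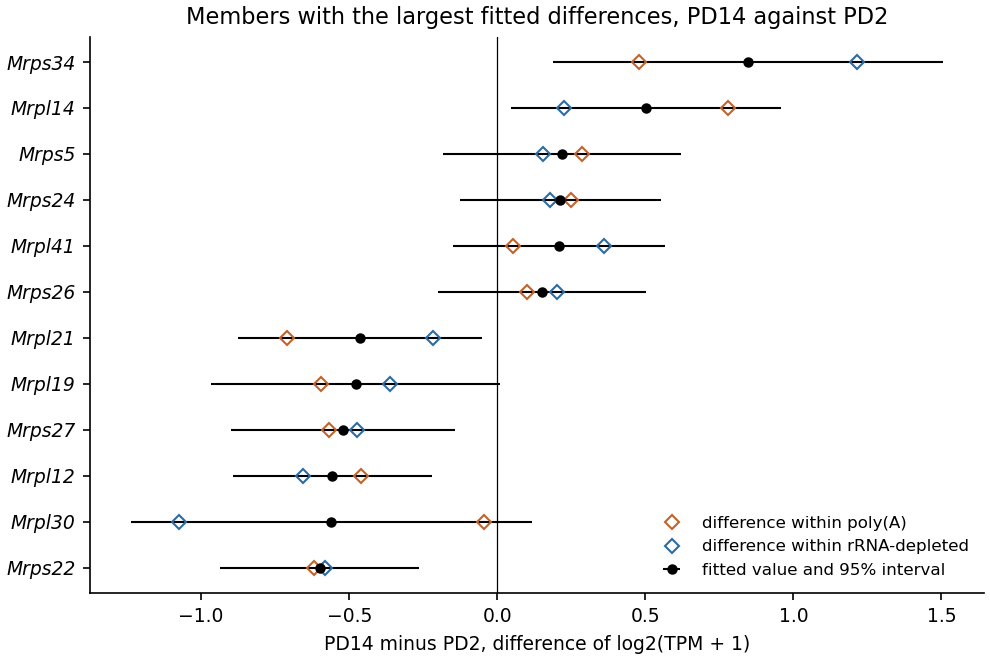
Fitted PD14 minus PD2 difference of log2(TPM + 1) with its 95% interval (black) for the 6 members with the largest positive and the 6 with the largest negative value; open diamonds give the difference within each library method. The 2 diamonds nearly coincide for Mrps22 and lie far apart for Mrpl30 and Mrps34.

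The library methods disagreed most on the PD14 minus PD2 difference for 5 members. For Mrpl58, a peptidyl-tRNA hydrolase built into the large subunit, the difference was -0.97 in poly(A) and 0.07 in rRNA-depleted libraries. For Mrpl30 it was -0.04 and -1.08, and for Mrpl27, a protein near the peptidyl transferase centre, 0.53 and -0.39. For Mrps6, a platform protein, it was -0.36 and 0.42, and for Mrps34 it was 0.48 and 1.22. Mrps6 shares 159 of 1533 exon bases with Slc5a3 on the same strand and is uncertain. Slc5a3 had 22.79, 14.52 and 11.39 TPM at PD2, PD8 and PD14 in poly(A) libraries and 58.25, 69.25 and 128.1 TPM in rRNA-depleted libraries. The part of Slc5a3 in the Mrps6 values was not tested. Over the 78 members the differences in the 2 methods correlated at r = 0.251, where the points of a method share the same pair of libraries. With 1 library per group and method, these gaps could not be tested.

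Grouped by place in the ribosome, no region had a called member, as follows from the count over all members. Each member was listed under a single region, so the lists of members per region may be incomplete. The 5 members listed under the central protuberance (Mrpl18, Mrpl38, Mrpl40, Mrpl46 and Mrpl48) had negative values, with a median of -0.319. The value of Mrpl48 was only -0.026. The stalk members Mrpl10, Mrpl11, Mrpl12, Mrpl53 and Mrpl54 had a median of -0.166 and ran from -0.557 to 0.141. The 5 around the peptidyl transferase centre, where peptide bonds form, had a median of -0.146, and the 5 at the rim of the exit tunnel -0.197. In the small subunit, the 5 platform members had a median of -0.167 and the 5 head members -0.165. Mrps5 and Mrps12, at the mRNA path and the decoding site, had values of 0.22 and 0.11. Against the median of 0.060 over all genes tested, proteins of bacterial type had a median of -0.182 and mitochondria-specific proteins -0.166, large-subunit proteins -0.170 and small-subunit proteins -0.166.

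The bacterial S18 protein has 3 relatives in the set, which sit at different places on the mitoribosome. In the classes used here Mrps18c counts as bacterial type, and Mrps18a and Mrps18b count as specific to mitochondria despite this relation. Mrps18a, in the large subunit, had 60.01, 53.72 and 57.83 TPM at PD2, PD8 and PD14 in poly(A) libraries and 55.78, 50.86 and 54.31 TPM in rRNA-depleted libraries. Mrps18b had 110.1, 84.65 and 76.34 TPM in poly(A) and 43.57, 50.85 and 49.68 TPM in rRNA-depleted libraries. Mrps18c had 63.03, 55.45 and 47.93 TPM in poly(A) and 65.34, 47.63 and 45.56 TPM in rRNA-depleted libraries. Mrps18a thus stayed in a narrow band, Mrps18b differed in direction between methods, and both PD2 values of Mrps18c lay above its 4 later values. Fitted PD14 minus PD2 differences were -0.04 ± 0.119, -0.17 ± 0.203 and -0.45 ± 0.133 for Mrps18a, Mrps18b and Mrps18c, with limma adjusted p of 0.823, 0.603 and 0.0894. The S18 genes were not compared with each other by a test.

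The early step, PD8 against PD2, also called no member. Over all tested genes, 3 passed (0.0225% of those tested), all of them higher. Without the rRNA-depleted PD2 library 493 genes were called higher and 148 lower, without the poly(A) PD2 library 197 and 99, and without any 1 of the other 4 libraries 0, with 0 members called in each case. At an unadjusted p under 0.05, 6 members differed, against 20.3% of genes tested. The median was -0.091, against 0.039 over all genes, and 52 of 78 values were negative. The largest negative values were those of Mrpl19 (-0.51 ± 0.192), Mrpl58 (-0.51 ± 0.275), Mrps22 (-0.50 ± 0.133), Mrps27 (-0.41 ± 0.149), Mrpl12 (-0.36 ± 0.133) and Mrpl18 (-0.36 ± 0.126). The value of Mrpl58 ran from -0.849 without the rRNA-depleted PD2 library to -0.164 without the poly(A) PD2 library. The largest positive ones were those of Mrpl14 (0.46 ± 0.179), Mrpl41 (0.27), Mrpl10 (0.23), Mrps34 (0.21), Mrps12 (0.20) and Mrps21 (0.19). Among all members the lowest adjusted p was 0.145, and the comparison shares its PD2 libraries with that of PD14 against PD2.

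The late step, PD14 against PD8, called no gene in the table (0%), and 1 member differed at an unadjusted p under 0.05, against 5.6% of genes tested. That member was Mrps36, the α-ketoglutarate dehydrogenase subunit. Its level was 53.44, 51.06 and 36.25 TPM at PD2, PD8 and PD14 in poly(A) libraries and 37.93, 42.04 and 32.07 TPM in rRNA-depleted libraries. The PD14 value was the lowest of each method. The fitted PD14 minus PD8 difference was -0.43 ± 0.144 (limma adjusted p = 0.866). Over the members the median was -0.067, against 0.012 over all genes, with 52 of 78 values negative. Mrpl30 (-0.40), Mrps23 (-0.34), Mrps11 (-0.34), Mrps17 (-0.31) and Mrpl50 (-0.27) followed on the negative side. On the positive side stood Mrps34 (0.63), Mrps24 (0.27), Mrps5 (0.21), Mrps10 (0.12), Mrpl48 (0.11) and Mrpl55 (0.11). Leaving out 1 library at a time, Mrps34 ran from 0.22 to 1.05, Mrps24 from 0.16 to 0.388 and Mrps5 from 0.076 to 0.337. On the negative side Mrps23 ran from -0.566 to -0.111 and Mrps17 from -0.579 to -0.052, so the size of these values depends on single libraries.

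The difference of the late from the early step called no gene (0%), and 0 members passed at an unadjusted p under 0.05, against 4.25% of genes tested. Its median was 0.068 over the members and -0.022 over all genes. The test of any change among the 3 groups called no member, against 1.46% of genes tested. At an unadjusted p under 0.05 it had 7 members, against 24.2% of genes tested, namely Mrpl12, Mrpl18, Mrps15, Mrps18c, Mrps22, Mrps27 and Mrps34.

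These genes differed far more between the library methods than between passages. Library method and replicate number are the same thing here, so a difference of culture or batch cannot be told apart from it. Of the 78 members, 34 were called higher in poly(A) than in rRNA-depleted libraries, against 16.4% of genes tested, and none was called lower, against 20.9% of genes tested. At an unadjusted p under 0.05, 2 were lower, Mrpl48 and Mrpl1, against 27.6% of genes tested. The median difference, poly(A) minus rRNA-depleted, was 0.440 over the members and -0.041 over all genes (n = 3 libraries per method), and 71 of 78 values were positive. The members were not alone in this. Of 82 tested cytosolic ribosomal protein genes, 45 were called higher in poly(A) libraries and 6 lower. Their median difference was 0.446, and 73 of the 82 values were positive. All 3 poly(A) values exceeded all 3 rRNA-depleted values for 50 members, against 20.1% of genes tested, and lay below them for 3, against 24.7%. The count of 34 was 2 without the rRNA-depleted PD8 library, 0 without the poly(A) PD8 library and 19 without either PD14 library, while the median stayed between 0.409 and 0.459. In the whole table the genes called higher then numbered 236 without the rRNA-depleted and 182 without the poly(A) PD8 library, against 2187 with all 6 libraries.

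Higher poly(A) values were found at every passage. At PD2, PD8 and PD14, 69, 71 and 67 of the 78 members were higher in the poly(A) library, with medians of 0.400, 0.477 and 0.451. Over all genes the medians were -0.079, 0.027 and -0.067. The table does not hold the whole of the rRNA-depleted libraries, whose values sum to 937217 to 950531 TPM there and to 1000000 TPM in each poly(A) library. Rescaling every library to a common sum left the members' median at 0.358. Transcript length went with the method difference at r = -0.202 over the 78 members, and the part of length was not tested.

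The largest method difference was that of Mrpl14, whose values are given above, with all 3 poly(A) values above all 3 rRNA-depleted ones. It was higher in poly(A) libraries by 1.31 ± 0.146 (limma adjusted p = 0.00626). Mrps25, a mitochondria-specific small-subunit protein, had 23.8, 23.69 and 24.19 TPM at PD2, PD8 and PD14 in poly(A) libraries and 11.91, 11.3 and 11.52 TPM in rRNA-depleted libraries. Its levels were almost the same at every passage and differed between methods by 0.98 ± 0.133 (limma adjusted p = 0.0082), but it shares 4590 of 6576 exon bases with Nr2c2 on the opposite strand and is uncertain. Mrpl20, which has no exon overlap and encodes a protein of bacterial type, had 208.3, 196 and 186.7 TPM in poly(A) and 117.8, 97.34 and 89.6 TPM in rRNA-depleted libraries. Its difference was 0.96 ± 0.099 (limma adjusted p = 0.00555).

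The others of the 12 largest called differences were those of Mrps10 (0.92), Mrps18b (0.88), Mrpl36 (0.86), Mrps28 (0.84), Mrpl12 (0.83), Mrpl13 (0.81), Mrpl43 (0.75), Mrps7 (0.73) and Mrpl34 (0.73). They come from both subunits, with 23 of 51 large-subunit and 11 of 26 small-subunit members called. Of these 9, Mrps18b, Mrpl36, Mrpl12, Mrpl13, Mrpl43 and Mrps7 overlap another gene in exons. Mrpl48, a central protuberance protein, went the other way, with 35.05, 27.51 and 28.9 TPM at PD2, PD8 and PD14 in poly(A) and 38.18, 39.84 and 44.57 TPM in rRNA-depleted libraries. Its difference of -0.42 ± 0.142 did not pass (limma adjusted p = 0.0701), nor did that of Mrpl1 of the L1 stalk, -0.39 ± 0.133 (limma adjusted p = 0.0709).

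**Figure D5:**
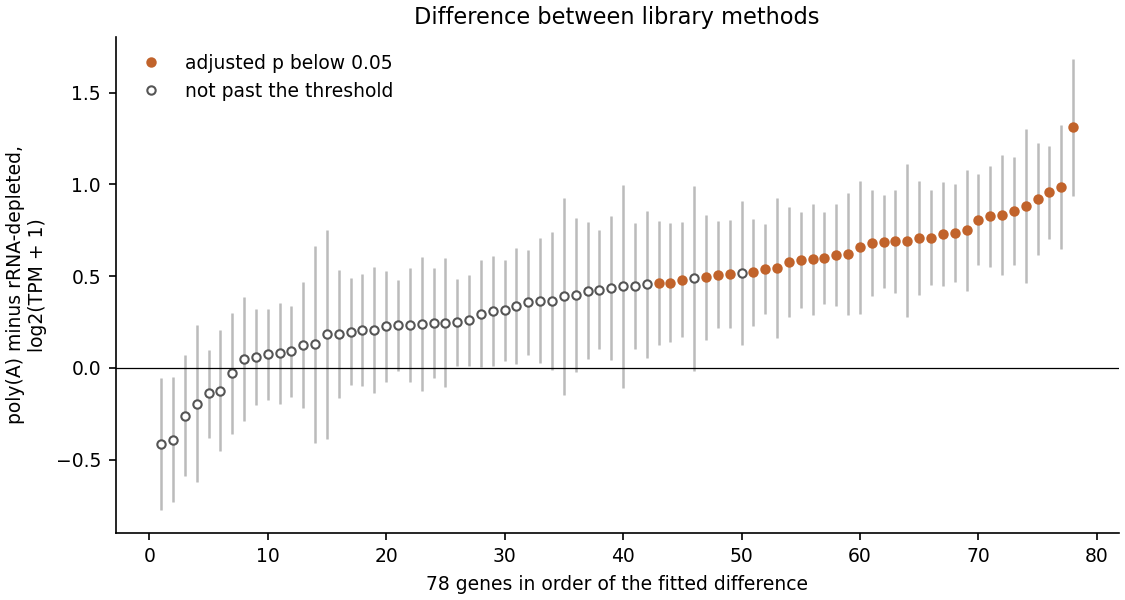
Fitted poly(A) minus rRNA-depleted difference of log2(TPM + 1) for the 78 genes in order of size, with 95% intervals in grey; filled points passed the threshold. The 34 filled points are all positive, and Mrpl14 stands at the right end at 1.31.

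Other genes of mitochondrial translation were read in the same fit. Mitoribosomal proteins under other symbols had 5 of 7 listed names in the table, since Ict1 and Mrp63 are older names of the members Mrpl58 and Mrpl57, with none called for PD14 against PD2 and a median of -0.273. Among them Chchd1 differed by -0.47 ± 0.126 (limma adjusted p = 0.0740) and Ptcd3 by -0.44 ± 0.206 (limma adjusted p = 0.214). The 16 translation factors and mRNA activators had none called and a median of -0.067. The largest were Lrpprc, which stabilises mitochondrial mRNAs, at -0.53 ± 0.124 (limma adjusted p = 0.0555), and Mtfmt, which formylates the initiator tRNA, at 0.38 ± 0.195. The 27 assembly and rRNA modification factors had none called and a median of -0.023, with C1qbp at -0.67 ± 0.172 (limma adjusted p = 0.0672) and Ngrn at 0.36 ± 0.187. At an unadjusted p under 0.05, 1 gene of each of these lists was lower and 0 were higher, against 14.1% and 17.9% of genes tested.

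Of 14 regulators of mitochondrial transcription and biogenesis, 1 rose and none fell at PD14, against 6.41% and 4.77% of genes tested. The list's median was -0.171. Esrra, a nuclear receptor that drives genes of oxidative metabolism, rose by 0.77 ± 0.156 (limma adjusted p = 0.0430). In the whole table no gene was called for PD14 against PD2 without the rRNA-depleted PD14 library, and so not Esrra. It had 24.78, 43.93 and 48.2 TPM at PD2, PD8 and PD14 in poly(A) libraries and 17.2, 26.17 and 26.6 TPM in rRNA-depleted libraries. Its coactivator gene Ppargc1b was low in all libraries, from 0.1047 to 2.535 TPM, and differed by -0.94 ± 0.268 (limma adjusted p = 0.0835).

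Of the cytosolic ribosomal protein genes, 82 were tested, and their PD14 minus PD2 median was -0.361, with 80 negative values. Of these 82 genes, 2 were called lower and none higher, against 4.77% and 6.41% of genes tested. At an unadjusted p under 0.05, 33 of the 82 were lower, against 14.1% of genes tested. The 36 genes of nuclear-encoded complex I subunits had a median of 0.013, with 18 values on either side of 0 and none called. At an unadjusted p under 0.05, 3 of the 36 were higher and 4 lower, against 17.9% and 14.1% of genes tested. The mitoribosomal median of -0.168 lay between them, and the sets were not tested against each other. Summed transcripts of the 13 mitochondrial DNA genes were 67390, 43510 and 30420 TPM at PD2, PD8 and PD14 in poly(A) libraries and 63950, 52950 and 56220 TPM in rRNA-depleted libraries.

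Across the series, fibroblast markers were high in all libraries, with 12 of 12 detected and sums of 16380 to 30170 TPM. Of these, 4 rose at PD14 against PD2 (Col3a1, Dcn, Lum and Twist1) and none fell, against 6.41% and 4.77% of genes tested. At an unadjusted p under 0.05 the counts were also 4 and 0, against 17.9% and 14.1%. Proliferation markers fell, with 14 of 15 called lower at PD14, against 4.77% of genes tested. Their sums at PD2, PD8 and PD14 were 999.2, 531.1 and 332.3 TPM in poly(A) and 1079, 624.9 and 417.4 TPM in rRNA-depleted libraries. The calls in these marker lists depend on single libraries, as given above for all genes. The 8 macrophage and leukocyte markers summed to 390.4, 692.3 and 645.8 TPM in poly(A) and to 138.8, 25.5 and 33.39 TPM in rRNA-depleted libraries. The poly(A) sum was thus the higher one in each group, but the sums moved in opposite directions from PD2 to PD14. The members' sum was lower at PD14 in both methods. Lyz2 made up most of the poly(A) sums, with 336.8, 621.1 and 569.3 TPM at PD2, PD8 and PD14. None of the 8 was at 0 in any library, and none was called between PD14 and PD2. At an unadjusted p under 0.05, 2 were lower, against 14.1% of genes tested. Muscle markers were called lower at PD14 in 4 of 4 tested, epithelial markers in 2 of 3 and endothelial markers in 1 of 4, against 4.77% of genes tested. Myh3, Krt8 and Krt18 passed the filter on low values only through their PD2 libraries. A lower PD14 level was thus built into their entry to the test, and markers under the filter were left out. The counts for muscle and epithelial markers are therefore partly fixed by the filter. The part of these cell types and of proliferation in the members' values was not tested.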

How the data were processed

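RNA of 6 MEF libraries was read from 1 table. The authors deposited TPM per gene symbol. Per the submitters' processing notes, bcl2fastq, cutadapt 1.14, HISAT2 2.0.5 and StringTie 1.3.1c were named with the mm10 build; the annotation is not given in the sources used here. TPM carry no read numbers, so depth and counting error are unknown.

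With limma 3.58.1 in R 4.3.3 (trend on), log2(TPM + 1) was fitted over genes with at least 1 TPM in at least 2 of 6 libraries. The added 1 understates differences of low genes. The model had a term per group and library method as a block, 2 residual and 3.22 prior degrees of freedom. The residual is thus the disagreement of the library methods over group differences, and standard errors and intervals rest on it. Two-sided tests were corrected over all tested genes (Benjamini-Hochberg, threshold 0.05). The labels tie the replicate number to library method; deviations of same-numbered libraries correlated at 0.664, 0.854 and 0.752. The script was tested on simulated data. Overlaps were taken from GENCODE M21 and copies from BLAST 2.17.0.

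Members, lists and tests were chosen with earlier results of these data known. Named genes were members past the threshold (the 12 largest each way) or, under 5 of these, the 6 largest each way; the 5 highest, 5 lowest and 5 most discordant members; the S18 family; and list genes that passed, or the 2 largest. Other members are named as examples. Alternatives were the pseudocount, filter, scaling, design terms and left-out libraries.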

Additional observations from a re-analysis of the deposited data

How the results depend on the processing

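Depth is unknown, since TPM carry no read numbers, and 2 libraries per group limit every test. No member was called in a comparison of passages under any alternative, except that 1, Mrps22, was lower at PD14 than at PD2 with a pseudocount of 0.1 and under median-of-ratios and quantile scaling; the cause was not tested. The members' median for PD14 against PD2 was -0.249 under median-of-ratios and -0.245 under quantile scaling. The median over all genes moved down too, from 0.06 as deposited to -0.015 and -0.031. For PD8 against PD2 the members' median was -0.153 and -0.130, and -0.100 with TPM rescaled to a common sum. Over all genes it was -0.018, -0.021 and 0.031, against 0.039 as deposited. For the late minus early step the members' median was 0.111 under median-of-ratios scaling and 0.087 rescaled. The summed TPM at PD14 differed from PD2 by -13.12% in poly(A) and -15.72% in rRNA-depleted libraries under median-of-ratios scaling, and at PD8 by -11.95% and -6.05%. For poly(A) against rRNA-depleted libraries the median was 0.491 under median-of-ratios and 0.548 under quantile scaling and 0.358 rescaled, and when rescaled 2 members, Mrpl1 and Mrpl48, were called lower. The median over all genes moved there by over 0.1, to 0.063 under quantile scaling against -0.041 as deposited. Of the calls over all genes in that comparison, 2187 were higher and 2785 lower as deposited, 1751 and 3250 rescaled and 2713 and 2288 under quantile scaling.

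Leaving out each library in turn, medians ran from -0.168 to -0.123 for PD14 against PD2, -0.118 to -0.064 for PD8 against PD2, -0.084 to -0.033 for PD14 against PD8 and 0.021 to 0.098 for the late minus early step. Members higher in poly(A) ran from 0 to 35 and members lower from 0 to 1, which was Mrpl48 without either PD2 library; fewer samples then enter the fit, and the lone library of a group is assumed to vary like the others. Single values that changed sign, with their range over left-out libraries, were, for PD8 against PD2, Mrpl10 (-0.020 without PD2 replicate 2, up to 0.477) and Mrps34 (-0.064 without PD8 replicate 2, up to 0.488), and for PD14 against PD8, Mrps10 (-0.042 without PD8 replicate 1, up to 0.275), Mrpl48 (-0.031 without PD14 replicate 1, up to 0.257) and Mrpl30 (0.081 without PD14 replicate 1, down to -0.874). None of these had passed the test.

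Without the replicate block, 0 members were called in any passage comparison, the median was -0.168 for PD14 against PD2, -0.067 for PD14 against PD8, -0.091 for PD8 against PD2 and 0.068 for the late minus early step, and 0 genes of the whole table were called for PD14 against PD2, against 854 higher and 636 lower with the block. With no filter on low values these were 229 higher and 175 lower, and with no mean-variance trend 540 and 398. Of 624 single-gene values under alternatives, 592 kept their direction and side of the threshold, 24 lost a call, 3 gained one and 5 changed sign.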
